A study of Homo sapiens with 4 samples.

Results

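The FAM83 family consists of 8 protein-coding genes, FAM83A to FAM83H, and its members were found by gene name among the 60617 genes of the deposited count table. All 8 were present, and 7 of them passed the filter on low counts that left 15170 genes for testing. PolyA RNA was sequenced from SCC13 cells, a line grown from a squamous cell carcinoma of human skin, after infection with a lentivirus that expressed either a scrambled shRNA (control shRNA, 2 libraries) or an shRNA against CELF2 (CELF2 knockdown, 2 libraries). The 4 libraries share the cell line, the culture medium, the lentiviral infection and a genotype labelled WT. CELF2 is an RNA-binding protein that takes part in splicing, mRNA stability and translation. The family was chosen by its values in the knockdown contrast, in which the fold change of FAM83E was among the largest increases. The values of its members in that contrast are therefore a description and support no claim about the family.

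FAM83 proteins share a conserved N-terminal domain, DUF1669, which resembles the catalytic domain of phospholipase D. Through this domain they bind protein kinases of the casein kinase 1 (CK1) family and bring them to particular places in the cell. FAM83A and FAM83B have been linked to EGFR, RAS and PI3K signalling in cancer cells, FAM83D to the mitotic spindle, FAM83F and FAM83G to WNT signalling, FAM83G also to BMP signalling, and FAM83H to the keratin cytoskeleton and to the formation of tooth enamel. FAM83C and FAM83E are less well described.

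The family member that differed most between the groups, FAM83E (ENSG00000105523), lies on GRCh38 chromosome 19 from 48600810 to 48614854 on the minus strand in GENCODE v29. The 250 bases before its RefSeq start are shown because FAM83E is the member on which the contrast turns. The same window is shown for FAM83G, the member whose groups lay closest, as a comparison. Capitals mark matches on either strand to the motifs TATAAA (the TATA box), CCAAT (the CCAAT box), GGGCGG (a GC box), TGANTCA (an AP-1 site), CACGTG (an E-box) or TTTGAA (a cell cycle element). The letters of different motifs may overlap. Both sequences are from RefSeq (GRCh38.p14) and read 5′ to 3′ along the gene's strand. The FAM83E window is chr19:48615077-48615326, minus strand, and the FAM83G window is chr17:19004765-19005014, minus strand. The RefSeq starts differ from those of GENCODE v29. The FAM83E window lies apart from the gene's GENCODE start at 48614854. The FAM83G window reaches past the GENCODE start at 19004804 into the gene, where its last motif matches lie.
FAM83E: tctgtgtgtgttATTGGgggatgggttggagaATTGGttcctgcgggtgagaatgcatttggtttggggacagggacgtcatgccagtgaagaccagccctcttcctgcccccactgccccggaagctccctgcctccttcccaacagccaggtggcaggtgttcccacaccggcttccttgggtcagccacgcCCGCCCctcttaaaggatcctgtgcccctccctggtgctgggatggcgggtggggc
FAM83G: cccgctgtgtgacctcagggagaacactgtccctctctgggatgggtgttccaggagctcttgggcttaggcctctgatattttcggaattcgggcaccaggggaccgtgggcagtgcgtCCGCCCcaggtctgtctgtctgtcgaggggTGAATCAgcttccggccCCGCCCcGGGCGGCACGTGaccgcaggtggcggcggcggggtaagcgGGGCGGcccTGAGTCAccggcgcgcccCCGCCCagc

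The FAM83E window held 2 matches to CCAAT and 1 to GGGCGG, and 34.8% and 68.4% of the 10087 such windows of tested protein-coding genes held at least 1 match to these motifs. The FAM83G window held 5 matches to GGGCGG, 2 AP-1 sites and 1 match to CACGTG. An AP-1 site was found in 3.98% of the windows and CACGTG in 8.87%. Neither window held TATAAA or TTTGAA, which 5.21% and 8.11% of the windows held. Promoter windows were matched for 4 of the 8 members, FAM83B, FAM83C, FAM83E and FAM83G. A match to a motif is a description of the sequence and not evidence of a binding site.

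CELF proteins bind GU-rich elements in RNA, so the 3′ UTRs of the members were searched on the sense strand for 2 such elements of 7 bases, TGTTTGT and TGTGTGT, with overlapping matches counted. Among 12676 tested protein-coding genes with a 3′ UTR, 40.7% held at least 1 of them. FAM83E held 1 match in a 3′ UTR of 299 bases, which 10.7% of the 1170 genes with a 3′ UTR within 25% of that length also did. FAM83F held 3 matches in 13964 bases, against a median of 7 among the 88 genes of like length. FAM83A, FAM83B, FAM83C, FAM83D, FAM83G and FAM83H held 0 matches. Of genes of like length, 57.95% held at least 1 for FAM83A, 65.81% for FAM83G and 56.45% for FAM83H. For FAM83C and FAM83D the shares were 28.32% and 19.89%, so a 0 was the more common outcome. The 3′ UTR of FAM83B has 15 bases, and 0% of its 21 genes of like length held a match, so its 0 says nothing. The 4 sites, with the element in capitals, are these, and the FAM83F sites are given in their order from the stop codon.
FAM83E: agaagggaTGTTTGTcacttgtt
FAM83F site 1: cacataccTGTGTGTgcccagcg
FAM83F site 2: ctgcctccTGTGTGTctagcatt
FAM83F site 3: catcccacTGTTTGTtggaagaa

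The depth was 27898889 and 17649090 counts for the controls and lay in between for the knockdown libraries (19928788 and 23177056). The labels do not say whether replicates came from separate cultures, so any p-value here measures only how far these libraries spread, which may be technical. CELF2 had 1 count in control replicate 1 and 0 in the other 3 libraries, so a loss of its mRNA was not detectable at this depth and the labels of the groups could not be checked on it. All 10 keratinocyte markers had counts in all 4 libraries, with a summed level of 12410 to 18800 CPM in the controls and 18020 to 26070 CPM in the knockdown. Of the 24 markers of other cell types 9 had 0 counts in every library, among them COL1A2, COL3A1, DCN and LUM of fibroblasts, MLANA, TYR and SOX10 of melanocytes and PTPRC and CD3E of immune cells. The summed level of the 5 endothelial markers was 0.178 to 0.572 CPM in the controls and 2.12 to 2.27 CPM in the knockdown. That of the 6 immune markers was 0.535 to 1.22 and 2.15 to 10.8 CPM. CD14 made up most of it, with 1.22 and 0.357 CPM in the controls and 10.7 and 2.02 CPM in the knockdown. The 7 fibroblast markers, nearly all COL1A1, summed to 13.3 to 16.3 and 21.1 to 38.2 CPM. The 6 melanocyte markers summed to 6.12 to 8.83 CPM in the controls and 9.03 to 9.05 CPM in the knockdown. MITF and PMEL made up nearly all of that sum. The part of the markers of other cell types in the results was not tested.

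FAM83E was low in the controls and higher in both knockdown libraries. Its level in CPM, which are counts scaled to library depth by the trimmed mean of M values, was 2.32 and 4.81 in the controls (65 and 81 counts), whereas it was 22.7 and 18.2 in the knockdown (459 and 431 counts). The groups did not overlap, and the lower knockdown library stood well above the higher control library. The means were 3.57 ± 1.76 CPM (SD, n = 2) in the controls and 20.4 ± 3.18 CPM (n = 2) in the knockdown, which is 5.81-fold by the fit (log2 fold change 2.54 ± 0.38, SE). FAM83E was the 1 member of the 7 tested past an adjusted p of 0.05 in edgeR's quasi-likelihood test, where 0.877% of all tested genes passed in either direction, 0.606% as higher and 0.27% as lower. Since this contrast chose the family, nothing is read from that count. The fold change of FAM83E was 2.07 (log2) without control replicate 1 and 2.69 without knockdown replicate 2, and in both of those fits the gene was no longer past the threshold.

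**Figure D1:**
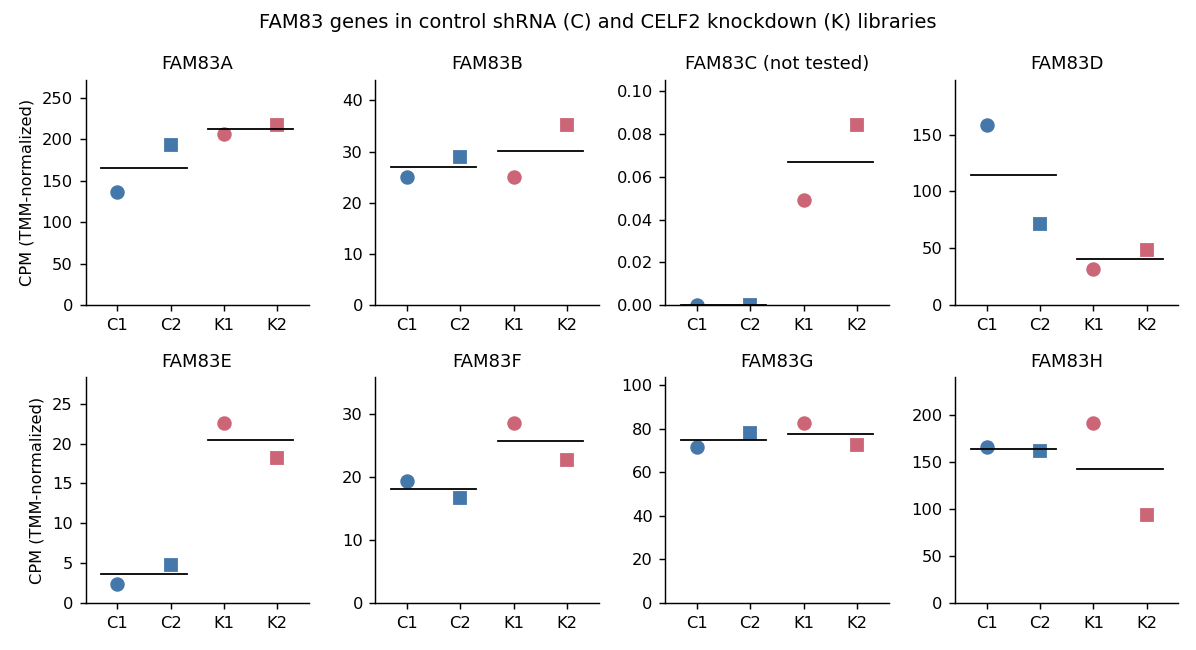
CPM of each FAM83 gene in the 2 control shRNA libraries (C1, C2, blue) and the 2 CELF2 knockdown libraries (K1, K2, red), each panel with its own axis from 0; horizontal lines are group means. FAM83E lies at 2.32 and 4.81 CPM in the controls and at 22.7 and 18.2 CPM in the knockdown, and FAM83D stands at 159 CPM in control 1.

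The neighbours of FAM83E did not share its difference in size. RPL18, a ribosomal protein gene 473 bases upstream on the same strand, stood at 539 and 637 CPM in the controls and at 546 and 536 CPM in the knockdown, and the groups overlapped (log2 fold change -0.12 ± 0.18, SE). SULT2B1, a cholesterol sulfotransferase gene of the epidermis that lies 1384 bases downstream on the opposite strand, stood at 6.01 and 5.94 CPM in the controls and at 7.11 and 6.32 CPM in the knockdown, groups that did not overlap (0.17 ± 0.29 on the log2 scale). SPACA4, a sperm membrane protein gene that lies inside the span of FAM83E on the opposite strand and shares 0 exon bases with it, had 0 counts in every library.

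The tested genes whose pattern over the 4 libraries was nearest to that of FAM83E were BAIAP3, TUBB4A and CD70. The measure was the root mean square difference of log2 CPM after each gene was centred on its mean, over the 10919 candidate genes whose mean reached 5 CPM. It was 0.040 for BAIAP3, which takes part in vesicle trafficking, 0.180 for TUBB4A, a beta-tubulin, and 0.236 for CD70, a ligand of the TNF family. BAIAP3 stood at 1.86 and 3.57 CPM in the controls and at 17.2 and 13.8 CPM in the knockdown, and 202 of its exon bases overlap TSR3 on the opposite strand, so its counts are uncertain. CD70 had its highest value in knockdown replicate 2, at 24.4 CPM, whereas FAM83E had its highest value in knockdown replicate 1.

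FAM83D (ENSG00000101447, chromosome 20, 38926312 to 38953106, plus strand), which brings CK1 alpha to the mitotic spindle, was the member with the largest difference in the other direction. It had 159 and 71.0 CPM in the controls and 32.1 and 48.3 CPM in the knockdown. The groups did not overlap, but the 2 controls differed 2.23-fold, with control replicate 1 the higher. The means were 115 ± 61.9 CPM (SD, n = 2) in the controls and 40.2 ± 11.4 CPM (n = 2) in the knockdown, and the fitted log2 fold change was -1.51 ± 0.38 (SE), not past the threshold over all genes. Without control replicate 1 the log2 fold change was -0.83, and without control replicate 2 it was -1.96.

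The list of FAM83D's partners and mitotic genes held 12 genes, of which NUSAP1 did not reach the filter. Of the 11 tested, 2 passed over all genes as lower (HMMR and CDC20), 0 passed as higher and 9 did not pass. Of all tested genes 0.27% passed as lower and 0.606% as higher. At an unadjusted p below 0.05 in edgeR's quasi-likelihood test 10 of the 11 were lower, as were 9.97% of all tested genes. In 10 both knockdown libraries lay below both controls, as in 27.8% of all tested genes. The list was chosen with earlier results of these data known, so these counts are a description. The median log2 fold change of the list was -1.43, where that of all tested genes was -0.0036. The list's median was -0.95 without control replicate 1, where 0 of its genes passed. Control replicate 1 held the highest of the 4 values in each of the 11, as it did in 30.9% of all tested genes. The median ratio of control replicate 1 to control replicate 2 was 1.85 in the list and 1.02 over all tested genes.

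Of the proteins that FAM83D binds, HMMR, which anchors it to spindle microtubules, fell from 63.7 and 34.4 CPM in the controls to 8.98 and 12.3 CPM in the knockdown. Its log2 fold change was -2.20 ± 0.33 (SE; adjusted p = 0.0483 in edgeR's quasi-likelihood test), and 113 of its exon bases overlap the antisense gene HMMR-AS1, which makes its counts uncertain. Without control replicate 1 or without knockdown replicate 2 it no longer passed (adjusted p = 0.141 and 0.107). KIF22, a chromosome-binding kinesin, stood at 232 and 189 CPM in the controls and at 107 and 125 CPM in the knockdown, groups that did not overlap. Its difference of -0.86 ± 0.18 on the log2 scale was not past the threshold (edgeR, adjusted p = 0.0622), and 561 of its exon bases overlap a gene on the opposite strand. DYNLL1, a dynein light chain with many functions outside mitosis, had 268 and 250 CPM in the controls, against 253 and 232 CPM in the knockdown, groups that overlapped.

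CDC20, which activates the anaphase-promoting complex, fell from 472 and 290 CPM to 91.7 and 135 CPM (a log2 difference of -1.75 ± 0.29, SE; edgeR quasi-likelihood test, adjusted p = 0.0483). It too no longer passed without control replicate 1 or without knockdown replicate 2 (adjusted p = 0.143 and 0.106). PLK1 and CCNB1, a mitotic kinase and the main mitotic cyclin, had log2 fold changes of -1.87 and -1.71 and did not pass, and the exons of PLK1 overlap those of 2 genes on the opposite strand. The 3 genes nearest in pattern to FAM83D were NEK2, SGO2 and KNL1, which act at centrosomes, at centromeres and at kinetochores, with root mean square differences of 0.042, 0.050 and 0.059 in centred log2 CPM. NEK2 had 81.1 and 38.1 CPM in the controls and 16.5 and 26.4 CPM in the knockdown, the same order of libraries as FAM83D.

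**Figure D2:**
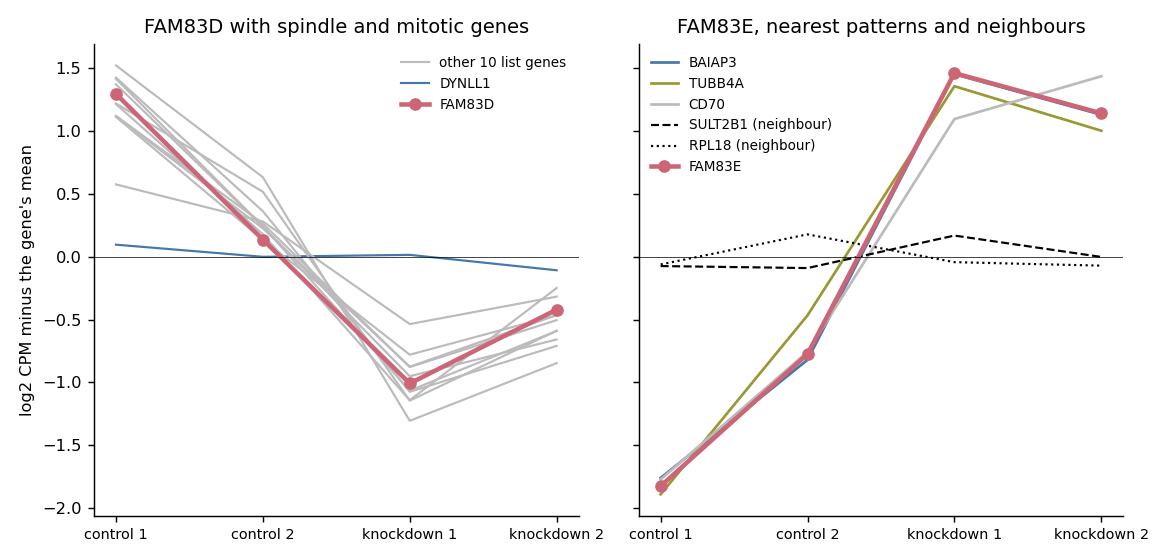
Log2 CPM of each gene minus its own mean over the 4 libraries; a line joins the values of 1 gene and carries no order in time. Left, FAM83D (red) runs with 10 spindle and mitotic genes (grey) and apart from DYNLL1 (blue); right, FAM83E (red) runs with BAIAP3, TUBB4A and CD70, while its genomic neighbours SULT2B1 and RPL18 (black) stay near 0.

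FAM83A and FAM83B are the members tied to growth factor signalling. FAM83A (ENSG00000147689, chromosome 8, 123178960 to 123210079, plus strand) had 137 and 193 CPM in the controls and 207 and 218 CPM in the knockdown, and the groups did not overlap. Its log2 fold change was 0.36 ± 0.20 (SE), with 0.65 without control replicate 2 and 0.13 without control replicate 1. The 2 controls differed 1.42-fold, with control replicate 2 the higher. FAM83B (ENSG00000168143, chromosome 6, 54846771 to 54942022, plus strand) had 25.1 and 28.9 CPM in the controls and 25.02 and 35.2 CPM in the knockdown. These groups overlapped, and the log2 fold change of 0.16 ± 0.23 turned to -0.11 without knockdown replicate 2.

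In the list of genes of EGFR, RAS and PI3K signalling, 0 of 15 tested members passed in either direction in edgeR's quasi-likelihood test, also at an unadjusted p below 0.05, against 0.877% and 22.1% of all tested genes. The median log2 fold change was -0.020. EGFR itself had 353 and 485 CPM in the controls and 570 and 522 CPM in the knockdown. Its groups did not overlap, and its log2 fold change of 0.38 ± 0.20 (SE) did not pass. PIK3R1, the regulatory subunit of PI3K, had the smallest p of the list and a log2 fold change of -0.46 ± 0.24; NRAS and MAPK3 had -0.29 and 0.32.

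FAM83F and FAM83G have been linked to WNT signalling. FAM83F (ENSG00000133477, chromosome 22, 39994949 to 40043529, plus strand) had 19.3 and 16.7 CPM in the controls and 28.6 and 22.6 CPM in the knockdown. The groups did not overlap, and the log2 fold change was 0.50 ± 0.22 (SE), between 0.33 and 0.66 when any 1 library was left out. FAM83G (ENSG00000188522, chromosome 17, 18968789 to 19004804, minus strand) had 71.5 and 78.3 CPM in the controls and 83.0 and 72.4 CPM in the knockdown. Its groups overlapped, and its log2 fold change of 0.053 ± 0.17 turned below 0 without control replicate 1, without knockdown replicate 1 and under a correction for GC content. The exons of FAM83G share 529 bases with SLC5A10, a sugar transporter gene on the opposite strand, which had 3 and 0 control counts and 15 and 5 knockdown counts.

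In the WNT list 0 of 12 tested genes passed (edgeR quasi-likelihood test; 0 also at an unadjusted p below 0.05, against 0.877% and 22.1% of all tested genes), with a median log2 fold change of -0.11. CTNNB1, which encodes beta-catenin, had 496 and 497 CPM in the controls, against 322 and 431 CPM in the knockdown, groups that did not overlap. Its log2 fold change was -0.40 ± 0.19 (SE), and GSK3B, a kinase of the beta-catenin destruction complex, had 0.28 ± 0.17. TCF7L2, a transcription factor partner of beta-catenin, and APC had -0.51 and -0.29.

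The BMP list held 12 tested genes, of which 0 passed over all genes (edgeR quasi-likelihood test), where 0.877% of all tested genes did. At an unadjusted p below 0.05, 4 were higher and 1 lower, and 12.1% and 9.97% of all tested genes were; the median was 0.036. The 4 higher ones were ID1, ID3, SMAD6 and SMAD7, which are induced by BMP or TGF-beta signals. ID1 had 8.12 and 15.7 CPM in the controls and 42.7 and 28.4 CPM in the knockdown, a log2 fold change of 1.59 ± 0.35 (SE; edgeR, adjusted p = 0.0673). SMAD6 was near the floor, with 0.322 and 0.297 CPM in the controls and 1.53 and 1.18 CPM in the knockdown, and SMAD7 had a log2 fold change of 0.68 ± 0.24. SMAD1, the BMP effector that FAM83G binds, had 20.4 and 14.0 CPM in the controls, against 14.2 and 15.3 CPM in the knockdown, and these groups overlapped. CD2AP, an actin-linked adaptor reported as a partner of FAM83G, was the lower one, with 105 and 80.2 CPM in the controls and 56.4 and 60.3 CPM in the knockdown (edgeR, adjusted p = 0.102).

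FAM83H (ENSG00000180921, chromosome 8, 143723933 to 143733801, minus strand) varied most between the 2 knockdown libraries. It had 165 and 161 CPM in the controls and 192 and 93.8 CPM in the knockdown, so the knockdown libraries lay on either side of the controls and differed 2.04-fold. The log2 fold change was -0.19 ± 0.31 (SE), and leaving out 1 of the knockdown libraries gave -0.79 (without replicate 1) or 0.23 (without replicate 2). The transcript of FAM83H has a GC content of 66.2%, in the highest of 5 equal groups of tested genes by GC content (58.8% to 74.5%). In that group the median ratio of knockdown replicate 1 to knockdown replicate 2 was 1.201, and in the lowest it was 0.943. After the GC correction the log2 fold change of FAM83H was -0.65, and with the replicate number as a block beside that correction it was -0.67, which passed the threshold (a description, as for all members). The part of GC content in this spread was not tested. Nearest in pattern were RAB11FIP3, PKD1 and PLEKHG2, with root mean square differences of 0.026, 0.042 and 0.045.

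FAM83E has a similar GC content of 66.5%, and the median log2 fold change of the highest group by GC content was 0.22, against -0.16 in the lowest. With the GC correction the log2 fold change was 2.17 ± 0.31 (SE) for FAM83E and -1.59 ± 0.38 for FAM83D, whose GC content is 50.7%.

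Among keratins and other partners of FAM83H 0 of 7 tested genes passed (edgeR quasi-likelihood test; 0 also at an unadjusted p below 0.05, against 0.877% and 22.1% of all tested genes), with a median log2 fold change of 0.11. KRT5 and KRT14, the keratin pair of basal keratinocytes, had 5461 and 7567 CPM and 2958 and 5150 CPM in the controls. In the knockdown they had 10780 and 6704 CPM and 7535 and 4592 CPM, with replicate 1 the higher for both, as for FAM83H. The other keratins of the list, KRT8 and KRT18, had the opposite order of the knockdown libraries, with replicate 2 the higher. KRT8 had 935 and 1915 CPM in the controls and 863 and 1270 CPM in the knockdown. KRT18 had 824.5 and 1565 CPM in the controls and 479.2 and 932.5 CPM in the knockdown. The groups overlapped for each of these keratins. For KRT18, a keratin of simple epithelia, the log2 fold change was -0.76 ± 0.38 (SE), and NCK2, an adaptor protein, had 0.32 ± 0.21.

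**Figure D3:**
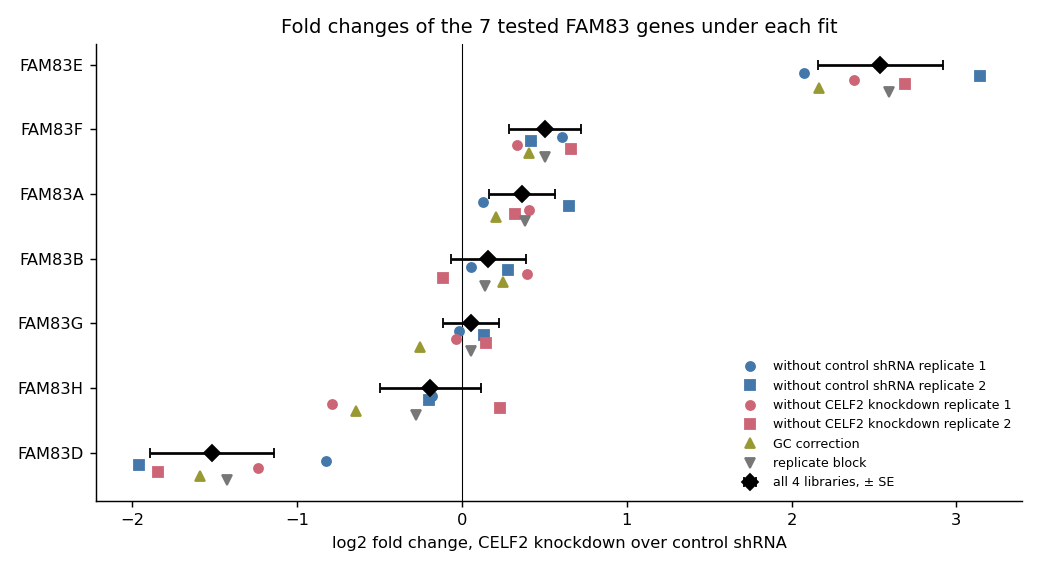
Log2 fold change, CELF2 knockdown over control shRNA, of the 7 tested FAM83 genes; diamonds with bars are the fit on all 4 libraries ± SE, and the other symbols are fits without 1 library, with a GC correction or with the replicate number as a block. FAM83E runs from 2.07 upward and FAM83D from -0.83 downward in the fits plotted, while FAM83B, FAM83G and FAM83H have values on both sides of 0.

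FAM83C (ENSG00000125998, chromosome 20, 35285731 to 35292401, minus strand) was at or under the floor. Its counts were 0 in both controls and 1 and 2 in the knockdown libraries, where a floor of 3 counts corresponds to 0.107 to 0.178 CPM. The exact Poisson 95% upper bound over the 2 control libraries was 0.0823 CPM, and over the 2 knockdown libraries 0.199 CPM. Intervals and floors cover counting error only. The table has 2 more rows with FAM83 in the name: FAM83C-AS1, antisense to FAM83C, had between 2 and 8 counts in each library, and FAM83A-AS1 had 0 counts in every library.

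The neighbours of the other members were of several kinds. EIF6, a ribosome assembly factor gene 745 bases downstream of FAM83C on the same strand, stood at 190 and 201 CPM in the controls, against 124 and 116 CPM in the knockdown, groups that did not overlap (log2 fold change -0.71 ± 0.16, SE; edgeR, adjusted p = 0.0678). TBC1D31, upstream of FAM83A, had 45.9 and 31.0 CPM in the controls, against 21.0 and 28.1 CPM in the knockdown, and did not overlap either. IQANK1, which starts 338 bases from FAM83H on the opposite strand, had 18.9 and 11.9 CPM in the controls, against 19.9 and 10.8 CPM in the knockdown, groups that overlapped. DHX35, a helicase gene downstream of FAM83D, and TNRC6B, a gene of microRNA silencing downstream of FAM83F, overlapped between the groups too, with log2 fold changes of -0.051 and 0.072. TINAG and HCRTR2 beside FAM83B, PPP1R16B beside FAM83D and GRAP2 beside FAM83F had 0 counts in every library. The other neighbours, C8orf76, UQCC1, PRPSAP2, GRAP and MAPK15, had log2 fold changes of 0.013, 0.25, -0.24, 0.21 and 0.47, and none passed.

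By the same distance in centred log2 CPM, the members lay closest to each other for FAM83A and FAM83B, at 0.218, and farthest apart for FAM83D and FAM83E, at 2.19. FAM83E was at least 1.13 from every other tested member, and FAM83D at least 0.902. Genes nearest to the remaining members were AC244102.4, PHF1 and POMT1 for FAM83A (0.017 to 0.024), TYW1, EML1 and SARAF for FAM83B (0.017 to 0.021), STON2, MANBA and LIMK1 for FAM83F (0.014 to 0.023), and PPP4C, GSTP1 and PARP6 for FAM83G (0.0069 to 0.015). The distance rests on 4 libraries and is a description.

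Read as a group, 3 of the 7 tested members (FAM83A, FAM83E and FAM83F) had both knockdown libraries above both controls, 1 (FAM83D) had both below, and 3 overlapped. The groups did not overlap in 54.9% of all tested genes, 27.1% with the knockdown above and 27.8% with it below, and the members' count was near that share. Since the knockdown contrast chose the family, nothing is read from it. The median log2 fold change of the 7 was 0.16, over a range from -1.51 to 2.54. Those 7 do not include FAM83C, which did not reach the filter.

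Divided by the length of each gene's main transcript, the group means changed order between the groups. In control replicate 2, however, FAM83A (35.85 CPM per kilobase) already stood above FAM83D (30.07), as in both knockdown libraries. In the controls FAM83D had the highest mean, 48.6 CPM per kilobase, before FAM83A (30.6), FAM83H (28.9), FAM83G (14.2), FAM83B (8.53), FAM83E (1.85) and FAM83F (1.16). The libraries of FAM83D overlapped those of FAM83A, those of FAM83A overlapped those of FAM83H, and those of FAM83E overlapped those of FAM83F, so these neighbours did not differ beyond their spread. In the knockdown FAM83A had the highest mean, 39.4 CPM per kilobase, before FAM83H (25.3), FAM83D (17.0), FAM83G (14.8), FAM83E (10.6), FAM83B (9.51) and FAM83F (1.64). There FAM83H overlapped FAM83D, FAM83D overlapped FAM83G, and FAM83E overlapped FAM83B.

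The summed length-scaled level of the family was 146 and 122 CPM per kilobase in the control libraries, against 123 and 113 under knockdown. FAM83D made up 46.1% and 24.7% of that sum in the control libraries, against 11.1% and 18.1% under knockdown. FAM83E made up 0.828% and 2.05%, against 9.55% and 8.33%, and FAM83A 17.4% and 29.4% against 31.1% and 35.7%. Among all tested genes with a transcript length, FAM83E stood at percentile 28.5 of length-scaled level in the controls and at percentile 61.1 in the knockdown, and FAM83D at 89.2 and 71.8.

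**Figure D4:**
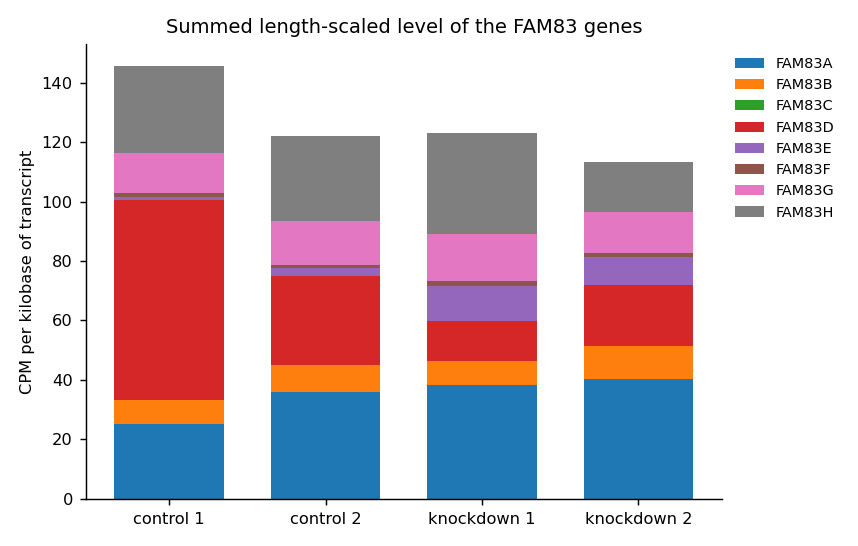
Stacked bars of the length-scaled level (CPM per kilobase of transcript) of the FAM83 genes in each library. The sum runs from 113 to 146; FAM83D (red) takes 46.1% of it in control 1, and FAM83E (purple) takes 9.55% and 8.33% in the knockdown libraries.

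In the list of CK1 kinases, the family whose alpha, delta and epsilon isoforms FAM83 proteins bind, 0 of 6 tested genes passed in either direction in edgeR's quasi-likelihood test, and 0 had an unadjusted p below 0.05, against 0.877% and 22.1% of all tested genes. The median log2 fold change was 0.18, but it was -0.034 with the GC correction and -0.0016 without control replicate 1. CSNK1A1, which encodes CK1 alpha, had 105 and 114 CPM in the controls and 123 and 146 CPM in the knockdown, and the groups did not overlap (log2 fold change 0.30 ± 0.17, SE). CSNK1D had 138 and 180 CPM in the controls, against 193 and 166 CPM in the knockdown, and CSNK1E had 98.4 and 158 against 130 and 163 CPM; both overlapped. The gamma isoforms, which FAM83 proteins are not known to bind, had log2 fold changes of 0.19 (CSNK1G1), 0.11 (CSNK1G2) and -0.26 (CSNK1G3). CSNK1A1L, a close relative of CSNK1A1, had 0 counts in every library.

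In the phospholipase D family, the enzymes whose fold DUF1669 resembles, 0 of 4 tested genes passed (edgeR quasi-likelihood test), where 0.877% of all tested genes did. At an unadjusted p below 0.05 PLD1 and PLD3 were higher, as were 12.1% of all tested genes. PLD3, a lysosomal nuclease, had 169 and 178 CPM in the controls and 346 and 228 CPM under knockdown, groups that did not overlap, with a log2 fold change of 0.73 ± 0.22 (SE; edgeR, adjusted p = 0.118). PLD1, a phosphatidylcholine-cleaving enzyme, had 10.4 and 6.95 CPM in the controls, against 18.7 and 13.4 CPM in the knockdown (0.88 ± 0.31). PLD2 and PLD6 had log2 fold changes of -0.010 and 0.36, and PLD4 and PLD5 had 0 counts in every library.

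**Figure D5:**
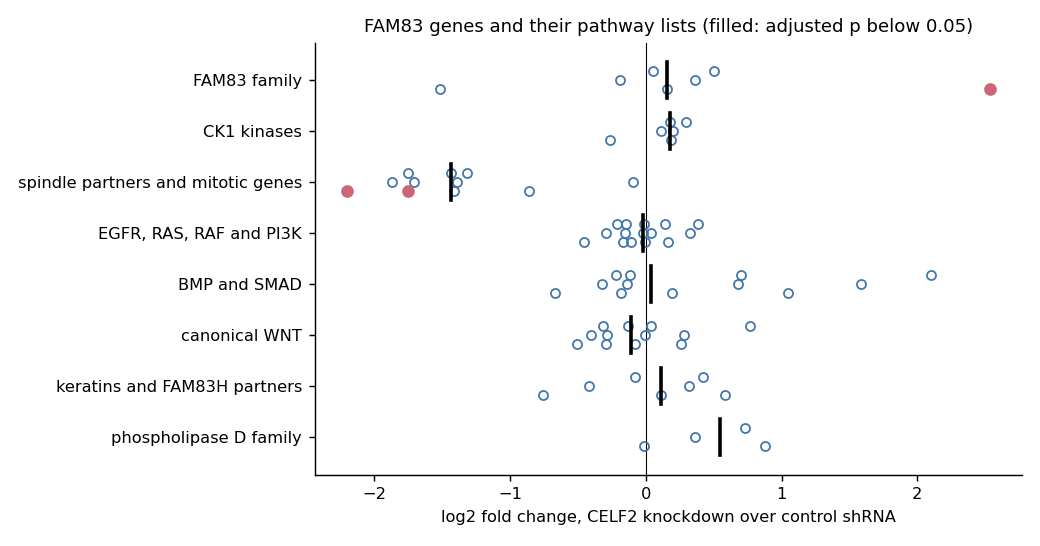
Log2 fold changes of the tested FAM83 genes and of the tested genes in 7 lists of their partners and pathways; each circle is 1 gene, filled where the adjusted p in edgeR is below 0.05, and black bars are medians. The 3 filled circles are FAM83E, at 2.54, and HMMR and CDC20, at -2.20 and -1.75.

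Over the 7 lists, 2 of 67 tested genes passed, both lower, or 2.99%, and 0.877% of all tested genes passed. The medians other than that of the spindle and mitosis list lay between -0.11 and 0.55. Of the 133 called among all tested genes, 69.2% were higher in the knockdown, whereas with the GC correction 38.4% of 349 were.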

How the data were processed

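The deposited values are raw read counts for each Ensembl gene and library. Per the submitters' processing notes, the authors used HISAT2, edgeR and GRCh38. How reads were counted, with which annotation and strand setting, was not stated in the sources used here. Columns were matched to samples by their descriptions and grouped by title. The deposited counts were tested with edgeR 4.0.16 (R 4.3.3; TMM, filterByExpr minimum count 10, quasi-likelihood test, Benjamini-Hochberg threshold of 0.05 over all genes tested). The common biological coefficient of variation was 21.6%. Standard errors are the log2 fold change over the square root of F. The fit was tested on simulated counts whose coefficient of variation was lower than 21.6%. That test checked the code and does not bear on how far the calls here can be relied on. Replicates differed by far more than sampling noise (chi-square per degree of freedom 54.3 in the controls, 48.1 in the knockdown). Positions, lengths, GC content and 3′ UTRs came from GENCODE v29 (GRCh38), with 1 main transcript per gene by APPRIS level, then coding length.

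The members, the 7 lists and the motifs were chosen with earlier results of these data known. Named were all members, every CK1 kinase, HMMR, DYNLL1 and KIF22, and per other list the called genes and the 4 with the smallest p. SMAD1 and ID3 were added after their values were seen, and KRT8 was named outside this rule. Also named were the 3 genes nearest in pattern to each tested member and the nearest protein-coding genes on either side. Alternatives were RLE normalization, 2 other filters, DESeq2 1.42.0, limma-voom (limma 3.58.1), a replicate block, a GC correction (a loess curve of centred log2 CPM on transcript GC content, span 0.5, as an offset per library), both together, and each library left out.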

Additional observations from a re-analysis of the deposited data

How the results depend on the processing

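FAM83E stayed above 0 (log2 fold change 2.07 to 3.15) and FAM83D below 0 (-1.96 to -0.83) in all 12 alternatives; FAM83A and FAM83F also kept their direction. FAM83E was called in 9 of the 12, but not by limma-voom, without control replicate 1 or without knockdown replicate 2. FAM83D, not called with the settings of the report, was called in 5. Values below 0 for FAM83G were -0.26 with the GC correction, -0.26 with the replicate block and GC correction together, -0.019 without control replicate 1 and -0.039 without knockdown replicate 1. With 1 library left out FAM83B ran from -0.11 to 0.39, FAM83G from -0.039 to 0.14 and FAM83H from -0.79 to 0.23. The cause of these turns was not tested.

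Against 133 genes called over the table, 1 FAM83 member and 2 list genes, RLE normalization called 207 genes. No filter on low counts called 2139, 2 and 17 in the same order, DESeq2 1386, 2 and 13, and limma-voom 0, 0 and 0 (3402 genes at an unadjusted p below 0.05, 3350 in edgeR). The GC correction called 349 genes and 4 list genes. With 1 library left out the counts ran from 0 to 616 genes, from 0 to 2 members and from 0 to 10 list genes; 0 genes were called without control replicate 1 (1724 at an unadjusted p below 0.05), 7 without knockdown replicate 2, 365 without knockdown replicate 1 and 616 without control replicate 2. The lone library of a group is assumed to vary like the other group.

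With the replicate block 1579 genes, 2 members (FAM83D and FAM83E) and 14 list genes were called, and with the block and the GC correction 2236, 3 (FAM83H as well) and 14. Same-numbered libraries deviated from their group means with a correlation of 0.203 over genes, which rests on only 2 pairs. The numbers in the column names also place each control just before the knockdown library of the same replicate number. The labels do not say that these libraries were paired. Members under about 3 counts, such as FAM83C, cannot be compared at this depth.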
